A study of Mus musculus with 14 samples.

Results

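Among the Brg1 peaks that fetal liver progenitors showed with wild-type EBF1 and not with an empty vector, 831 were missing when EBF1 lacked its C-terminal domain (CTD) and were called with both other altered versions of EBF1. They were selected on the deposited peak lists. A peak of the wild-type (wt) list on chromosomes 1 to 19, X or Y entered when it overlapped no peak of the empty-vector or dC list and overlapped by at least 1 bp a peak of both the dPLD and the F-GATA3 list. The 831 peaks are 4.43% of the 18765 gained wt peaks, those without an empty-vector peak, and the whole wt list held 29354 peaks. Across all gained wt peaks 23.7% lacked a dC peak, 77.2% had a dPLD peak and 70.0% had an F-GATA3 peak. These shares belong to the selection and carry no test.

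EBF1 is a transcription factor that starts and maintains the B-cell programme, and its CTD lies beyond the DNA-binding and dimerisation domains. Brg1, encoded by Smarca4, is the ATPase of BAF and PBAF complexes, which move or evict nucleosomes so that regulatory DNA becomes accessible. In early B cells EBF1 binds enhancers and promoters of genes for the pre-B-cell receptor and for B-lineage surface proteins. The series addresses how the CTD bears on Brg1 recruitment.

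The fetal liver cells were c-kit+ progenitors of EBF1 -/- C57BL/6 embryos of day 16 to 18, so that each fetal liver group, the empty-vector control included, lacked endogenous EBF1. They were transduced with a pMys vector that carried GFP alone (empty) or GFP with EBF1 wt, dC (CTD deleted), dPLD (residues 480 to 520 deleted) or F-GATA3 (CTD exchanged for the TA1 domain of GATA3), and were kept for 14 to 20 days on OP9 stroma with IL7, SCF and Flt3. Per the labels, wt and F-GATA3 gave pro-B cells, dC and dPLD cells were partly arrested ahead of that stage, and empty-vector cells were arrested ahead of it. EBF1 version and stage therefore cannot be told apart between wt and dC in fetal liver, and no expression data were used that could check the labelled cell type against its markers. The other cells were pro-B lines transformed with A-MuLV, the Abelson leukaemia virus, from EBF1 fl/fl fetal liver, in which exogenous EBF1 wt or dC had replaced the endogenous protein. Both A-MuLV lines are labelled pro-B. They were profiled for Brg1 and for EBF1, and none of these 4 lists was used to choose the peaks. Fetal liver chromatin was crosslinked with EGS and 2% formaldehyde, A-MuLV chromatin with EGS and 1% formaldehyde for Brg1 and with 1% formaldehyde alone for EBF1.

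Of the 14 samples, 9 had a peak list and 5 were inputs, with 1 library per group. The lists held 17687 to 30301 Brg1 peaks in fetal liver, 24493 (wt) and 24420 (dC) Brg1 peaks in A-MuLV cells, and 6155 (wt) and 11147 (dC) EBF1 peaks. No spread between replicates could be measured and no p-value is given. Intervals in parentheses are 95% intervals, exact Clopper-Pearson for a share and Newcombe for a difference of 2 shares, and cover counting over sites in these libraries, not variation between cultures. Sequencing depth is unknown, so that a missing peak does not show that the protein was absent. Fold enrichment is the authors' value at the summit of a peak and ranks peaks within 1 list.

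The peaks missing only with dC overlapped 93 promoter windows, from 250 bp before to 50 bp after a gene start, of 86 genes. EBF1 binds the palindrome CCCNNGGG, flanked by T and A in its best-known form. Of the 93 windows, 24 (25.8%, 17.3 to 35.9) held CCCNNGGG, against 13.7% of all 32817 windows. Of the 5667 windows on any gained peak 17.6% held it, a share inside that interval. Where the Brg1 peak also carried an A-MuLV EBF1 peak, 14 of 21 windows held it (66.7%, 43.0 to 85.4). Windows with an EBF1 peak were not counted for the other classes. Stretches before the gene start are printed to show how the palindrome sits at the sites. They come from the 6 windows with the highest Brg1 peaks among those with an EBF1 peak and a match before the start. Hmgcll1, with a wt fold of 9.08 and its match after the start, was passed over. Il2rg was added after its values had been seen. Each stretch is RefSeq sequence of GRCm38.p6 on the strand of its gene, with matches to CCCNNGGG in capitals.
Gm30039: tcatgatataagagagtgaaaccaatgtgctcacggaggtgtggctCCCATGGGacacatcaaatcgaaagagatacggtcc
Neu1: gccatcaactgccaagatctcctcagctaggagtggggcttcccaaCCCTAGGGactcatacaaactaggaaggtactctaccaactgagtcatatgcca
Gm10847: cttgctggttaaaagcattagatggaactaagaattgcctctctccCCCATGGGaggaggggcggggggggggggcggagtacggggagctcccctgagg
Gm42161: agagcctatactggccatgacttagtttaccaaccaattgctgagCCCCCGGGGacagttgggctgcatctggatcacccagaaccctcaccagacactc
Mmp14: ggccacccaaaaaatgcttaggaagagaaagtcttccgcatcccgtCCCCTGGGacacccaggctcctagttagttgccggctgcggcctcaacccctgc
Il4i1: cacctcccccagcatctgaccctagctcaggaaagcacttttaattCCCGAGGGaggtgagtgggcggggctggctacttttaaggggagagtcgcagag
Il2rg: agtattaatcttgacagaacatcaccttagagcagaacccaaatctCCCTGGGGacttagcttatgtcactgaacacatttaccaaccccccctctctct

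The Gm30039 stretch (chr10:78092881-78092962, minus strand) lay in the Brg1 peak nearest to Icosl, and its middle was 8 bp from the EBF1 summit. That peak had folds of 17.1 with wt, 6.12 with dPLD and 13.6 with F-GATA3 in fetal liver, and Gm30039 is a long noncoding RNA gene. The Il4i1 stretch (chr7:44836182-44836281, plus strand), before the gene of a secreted amino acid oxidase, was centred 5 bp from the EBF1 summit and 18 bp from the Brg1 summit. The Mmp14 stretch (chr14:54431370-54431469, plus strand), before a membrane-bound matrix metalloprotease gene, was centred 36 bp from the EBF1 summit and 1 bp from the Brg1 summit. At Il2rg (chrX:101268300-101268399, minus strand), which encodes the chain shared by the receptors of IL2 and IL7, the distances were 90 and 45 bp. In these 4 stretches the palindrome stood between T and A.

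The other 3 stretches held the palindrome without that flank. The Gm10847 stretch (chr14:74921930-74922029, plus strand) was centred 59 bp and the Gm42161 stretch (chr5:113145152-113145251, plus strand) 361 bp from the EBF1 summit, and both are long noncoding RNA genes. At Neu1 (chr17:34931019-34931118, plus strand), which encodes a lysosomal sialidase, the stretch was centred 1370 bp from the EBF1 summit, inside a wide peak. The Mmp14 peak had A-MuLV Brg1 folds of 3.13 with wt and 4.14 with dC, and no A-MuLV Brg1 peak was called at the Il4i1 and Il2rg peaks with either form. An EBF1 peak of at least 1 form was a condition for printing, and peaks of both forms were called at all 7 sites. A match of letters is a description of the window and not a measured binding site.

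Other letter patterns were counted on both strands of the same windows. The palindrome between T and A stood in 5 of the 93 windows (5.38%, 1.77 to 12.1), and in 4 of the 21 with an EBF1 peak, against 0.905% of all windows. CCCNNNGGG, which has the same letters with 1 more base of spacing, stood in 19.4% (11.9 to 28.9) of the 93 windows and in 12.7% of all. Among windows on gained peaks called with all 3 altered versions, 17.6% held CCCNNGGG and 17.0% held CCCNNNGGG. TGTGGT, the core of RUNX sites, stood in 25.8% (17.3 to 35.9) of the 93 windows and in 10 of the 21 with an EBF1 peak, against 16.8% of all windows and 11.7% on peaks called with all 3 versions. GATAA, the core of GATA sites, stood in 16.1% (9.32 to 25.2), close to the 15.5% on peaks called with all 3 versions. CANNTG, the E-box, stood in 55.9% (45.2 to 66.2), against 62.5% there. Windows of neighbouring starts can overlap, and these stretches are promoters, whereas most of the 831 peaks lay elsewhere.

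In the wt list the 831 peaks had a median fold of 7.39, with quartiles of 5.77 and 9.31 and a range of 2.36 to 20.2. These heights are part of the selection and are given as a description. Gained peaks called with all 3 versions had a median of 7.60, while those missing only with F-GATA3 and only with dPLD had 5.78 and 5.77. The 831 peaks were therefore not the low end of the wt list: their median rank stood at the 52.6th percentile of it. Their median width was 895 bp, between 1228 bp for peaks called with all 3 versions and 751 bp for peaks missing only with F-GATA3.

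On the same sites the dPLD peaks had a median fold of 5.60, with a range of 2.03 to 17.7, and the F-GATA3 peaks 6.62, with a range of 2.36 to 20.3. Both lists were used in the selection, and folds share no scale between lists. By rank within its own list, the median percentile was 26.3 for the dPLD peaks and 47.5 for the F-GATA3 peaks. For peaks called with all 3 versions it was 54.8 with dPLD and 47.5 with F-GATA3. The sites thus ranked low in the dPLD list, which was not particular to them. Peaks missing only with F-GATA3 had a median percentile of 30.2 with dPLD and 36.7 with dC. Those missing only with dPLD had 22.2 with dC and 26.7 with F-GATA3. The summits were close, within 200 bp of the wt summit at 757 sites with dPLD and at 766 with F-GATA3. The highest peak, inside Stox2 (a gene of the storkhead-box family of DNA-binding proteins) at chr8:47302606-47303805, had folds of 20.2 with wt, 6.15 with dPLD and 11.0 with F-GATA3. An intergenic peak 51425 bp from Nxph1, which encodes a ligand of neurexins, had 19.6, 8.35 and 14.7. A peak inside Nkd2, which encodes an inhibitor of Wnt signalling, had 18.0, 10.7 and 17.8. No dC peak was called at any of the 3. At Tmem132e the folds were 15.9, 8.01 and 20.3, and at Zdhhc7, a palmitoyltransferase gene, 16.2, 10.9 and 8.06, so that the order of the folds differed between sites.

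**Figure D1:**
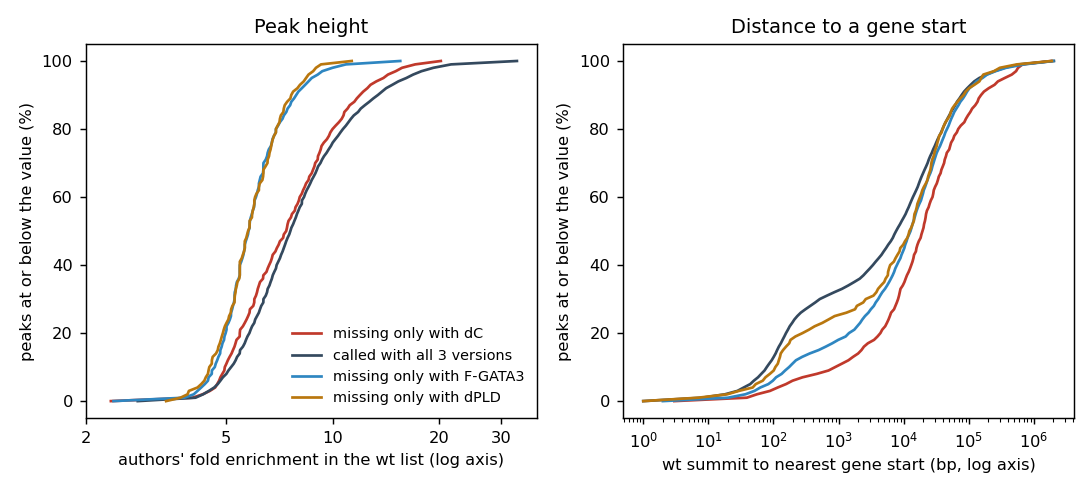
Cumulative curves for gained fetal liver Brg1 peaks of 4 classes: the share of peaks (%) at or below a fold enrichment in the wt list (left, log axis) and at or below a distance in bp from the wt summit to the nearest RefSeq gene start (right, log axis). Peaks missing only with dC follow the height of peaks called with all 3 versions (medians 7.39 and 7.60) and lie farther from gene starts (medians 19511 and 7672 bp).

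The nearest dC peak lay a median of 11013 bp away. It was within 200 bp of 14 peaks, within 1 kb of 74 (8.90%) and within 10 kb of 399 (48.0%). Just inside the rule were peaks with a dC peak 75 bp from one nearest to Jak2 (wt fold 5.33), 94 bp from one nearest to Phf2 (5.46) and 101 bp from one nearest to Srbd1 (5.01). Just outside it were gained peaks that touched a dC peak by 7 bp near Scml4, by 25 bp near Plppr1 and by 35 bp near Tmem229b. A dC peak no farther than 100 kb away was found for 731 of the 831 (88.0%).

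Membership of the class turned on the height at which a peak is called. The fetal liver lists start near a −log10 q of 10, and the 831 peaks had a median −log10 q of 23.1 with wt, 14.5 with dPLD and 19.1 with F-GATA3. When peaks in all 5 fetal liver lists had to reach 20, the same rule gave 577 peaks, of which 124 were among the 831 (14.9%). With every list held to its 17687 highest peaks, it gave 853 peaks, with 157 of the 831 (18.9%). With summits within 200 bp in place of overlap it gave 1335 peaks, with 732 of the 831. Stricter limits remove dC peaks and add none, so peaks left under the first 2 settings through their wt, dPLD or F-GATA3 calls. Of the 831, 489 reached 20 with wt, 182 with dPLD and 383 with F-GATA3. The peaks that entered under the first 2 settings overlapped a dC or empty-vector peak that fell short of the limit. Values under these settings are given beside each result that moved by over 1.5 times.

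A-MuLV cells gave a reading of wt against dC in libraries that the selection did not use. A-MuLV Brg1 peaks stood on 375 of the 831 sites with EBF1 wt (45.1%, 41.7 to 48.6), against 43.0% of all gained peaks. With EBF1 dC they stood on 187 (22.5%, 19.7 to 25.5), against 42.1% of all gained peaks. Gained peaks called with all 3 fetal liver versions had A-MuLV Brg1 peaks at 57.1% with wt and 59.3% with dC. The sites missing only with F-GATA3 had 24.2% and 31.7%, and those missing only with dPLD 28.3% and 27.4%. Peaks called only with F-GATA3, which lack dC and dPLD, went from 32.9% with wt to 10.8% with dC, and peaks called with none of the 3 versions from 14.2% to 7.45%. A lower share with dC than with wt was thus not particular to the 831 sites.

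The lists split the 831 sites mostly in one direction, though not on promoters, where 38 sites had a Brg1 peak with wt and 38 with dC. A Brg1 peak was called with wt and not dC at 232 sites (27.9%, against 11.2% of all gained peaks) and with dC and not wt at 44 sites (5.29%, against 10.3%), so that wt held 84.1% (79.2 to 88.2) of the sites called in 1 list. Of peaks called only with F-GATA3, which also lack dC, 25.1% were called with wt and not dC. The 831 lay 2.83 points above them, with an interval of -1.12 to 6.82. Peaks called only with dPLD, which lack dC and F-GATA3, had 14.3%, or 28.6% when weighted to the wt folds of the 831. Those called with none of the 3 versions had 10.6%, or 23.6% when weighted. A share near 27.9% was thus not particular to the 831 sites. Both lists had a peak at 143 of the 831 sites and neither at 412. Of the 375 sites with an A-MuLV wt peak, 38.1% (33.2 to 43.3) were also called with dC, against 74.0% for all gained peaks. The share was 83.3% for peaks called with all 3 versions, a difference of -45.1 points (-50.0 to -40.0). It was 67.6% for peaks missing only with F-GATA3, a difference of -29.5 points (-35.5 to -23.1), and 62.4% for those missing only with dPLD, a difference of -24.3 points (-33.6 to -14.2). The 1108 gained peaks called only with F-GATA3 had a still lower share of 23.8%, and the 831 lay 14.3 points (7.65 to 20.8) above them.

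The size of that share moved with the thresholds, while its order against the peaks called with all 3 versions was the same under each setting for which both were computed. At a fetal liver −log10 q of 20 it was 65.7%, against 92.3% for peaks called with all 3 versions. With fetal liver lists of equal length it was 68.6% against 88.6%, and with summits within 200 bp in place of overlap 64.2% against 83.8%. The A-MuLV Brg1 lists reach down to a −log10 q of 1.37 with wt and 1.33 with dC. With a minimum of 10 in both, the share was 16.4% (28 of 171 sites) against 45.6%, and peaks missing only with dPLD had 13.0% (3 of 23). The shares of the 831 sites with an A-MuLV Brg1 peak were then 20.6% with wt and 4.21% with dC. With dC the share was 49.6% at a fetal liver −log10 q of 20, 51.3% with equal lengths and 43.3% with summits within 200 bp, against 79.6%, 71.7% and 59.3% for peaks called with all 3 versions.

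**Figure D2:**
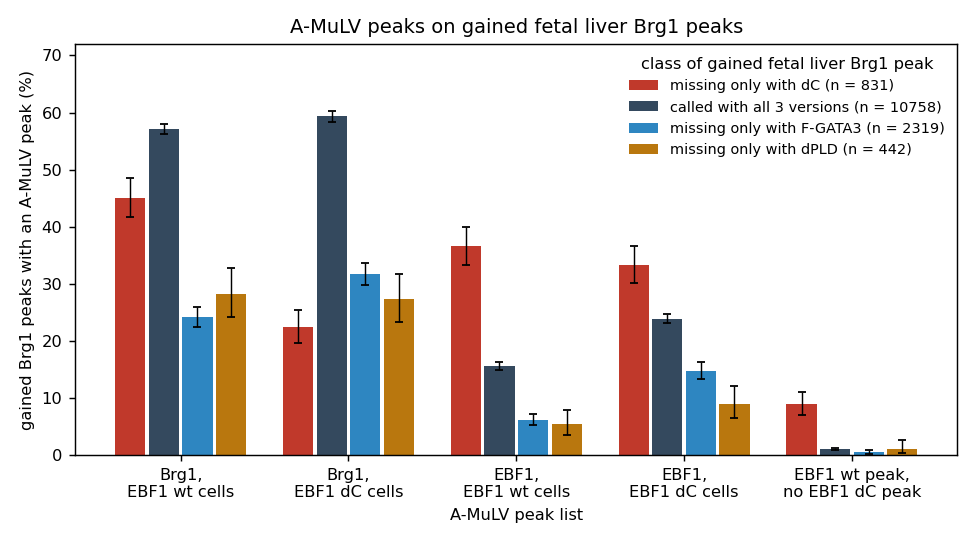
Share (%) of gained fetal liver Brg1 peaks that overlap a peak of each A-MuLV list, by class. Bars are shares in 1 library each and lines exact 95% intervals over sites; peaks missing only with dC have Brg1 peaks at 45.1% with EBF1 wt and 22.5% with EBF1 dC, and EBF1 wt peaks at 36.6%.

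EBF1 itself was called on the 831 sites more often than on other gained peaks. In the A-MuLV list with EBF1 wt, 304 of them carried an EBF1 peak (36.6%, 33.3 to 40.0), against 14.8% of all gained peaks. The share was 15.6% for peaks called with all 3 versions, 6.17% for those missing only with F-GATA3 and 5.43% for those missing only with dPLD. The differences were 20.9 points (17.7 to 24.3), 30.4 points (27.0 to 33.9) and 31.2 points (27.1 to 34.9). Weighted to the wt folds of the 831, the share for peaks called with all 3 versions was 14.3%. Peaks called only with F-GATA3 came nearest, with 29.4% (32.9% when weighted), an unweighted difference of 7.16 points (2.94 to 11.4). Peaks called with none of the 3 versions had 10.0%, or 24.0% when weighted.

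With EBF1 dC, 277 sites carried an EBF1 peak (33.3%, 30.1 to 36.7), against 20.6% of all gained peaks and 23.9% of peaks called with all 3 versions. An EBF1 peak of at least 1 form stood on 351 sites (42.2%, 38.9 to 45.7), against 22.9% of all gained peaks. Peaks called only with F-GATA3, which also lack dC, had 35.6%, and their weighted share lay inside that interval. Peaks called only with dPLD, which lack dC and F-GATA3, had 21.7%, or 37.6% when weighted. Their share with an EBF1 dC peak was 18.4%, or 30.7% when weighted. The EBF1 dC list is the longer one, and among peaks called with all 3 versions EBF1 dC peaks were more frequent than EBF1 wt peaks. On the 831 sites the 2 forms stood at 36.6% (wt) and 33.3% (dC). That order turned around under 2 settings. Fetal liver lists of equal length gave 36.2% with wt and 37.0% with dC. Summits within 200 bp in place of overlap gave 28.8% and 30.9%. EBF1 wt without EBF1 dC was called at 74 sites (8.90%, 7.06 to 11.1), against 2.25% of all gained peaks and 1.12% of peaks called with all 3 versions. The difference from peaks called only with F-GATA3 (11.3%) was -2.38 points (-5.03 to 0.368), an interval that includes 0. Of the 74 sites, 14 lay in the immunoglobulin kappa locus, and without the peaks of that locus the share was 7.56%. With both EBF1 lists held to 6155 peaks, 13.5% of the 831 had EBF1 wt alone, against 2.80% of peaks called with all 3 versions. With summits within 200 bp in place of overlap in fetal liver, the shares were 5.69% and 1.17%.

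The EBF1 wt summits lay on the Brg1 summits. Their median distance from the fetal liver wt summit was 42.5 bp, and 94.7% were within 200 bp. The share was 80.2% for peaks called with all 3 versions, 87.4% and 87.5% for those missing only with F-GATA3 and only with dPLD, and 98.2% for those called only with F-GATA3. These EBF1 wt peaks had a median fold of 10.6, with a range of 5.04 to 71.7. The 10 sites with the highest of them all carried EBF1 and Brg1 peaks of both forms in A-MuLV cells. At Spata48, chr11:11500905-11501523, EBF1 had folds of 71.7 with wt and 68.0 with dC, and A-MuLV Brg1 had 51.3 and 19.3. An intergenic site 15848 bp from Actb, which encodes beta-actin, had EBF1 folds of 64.3 and 62.7 and Brg1 folds of 17.6 and 10.4.

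A site inside Adap1 had EBF1 folds of 57.5 with wt and 26.3 with dC, and its A-MuLV Brg1 folds were 17.4 and 6.56. Others of these 10 sites were at or near Rasa4, Ccm2, Ttc7b, Tex44, Zfyve28 and Clasp1, with EBF1 wt folds from 32.9 to 45.6. At each of the 10 the Brg1 fold was higher in the wt list than in the dC list. Folds in separate lists share no common scale, so the gap between them is not a measured change in occupancy.

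How often Brg1 was called with dC differed with the EBF1 peaks on the site. Of the 230 sites with EBF1 peaks of both forms, 195 had an A-MuLV Brg1 wt peak, and 51.3% (44.0 to 58.5) of these were also called with dC. The share for peaks called with all 3 versions in that state was 86.2%, a difference of -35.0 points (-42.1 to -27.8). Of the 74 sites with EBF1 wt alone, 55 had a Brg1 wt peak and 2 of these were called with dC (3.64%, 0.443 to 12.5), against 36.3% for peaks called with all 3 versions. Of the 47 sites with EBF1 dC alone, 20 had a Brg1 wt peak and 8 of these were called with dC (40.0%, 19.1 to 63.9). Of the 480 sites with no EBF1 peak, 105 had one and 31.4% (22.7 to 41.2) were called with dC, against 81.9%. The lower share was thus seen with and without an EBF1 peak. In the state with both EBF1 forms, peaks missing only with dPLD had 6 of 15, and the difference from them was 11.3 points (-14.0 to 32.6).

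**Figure D3:**
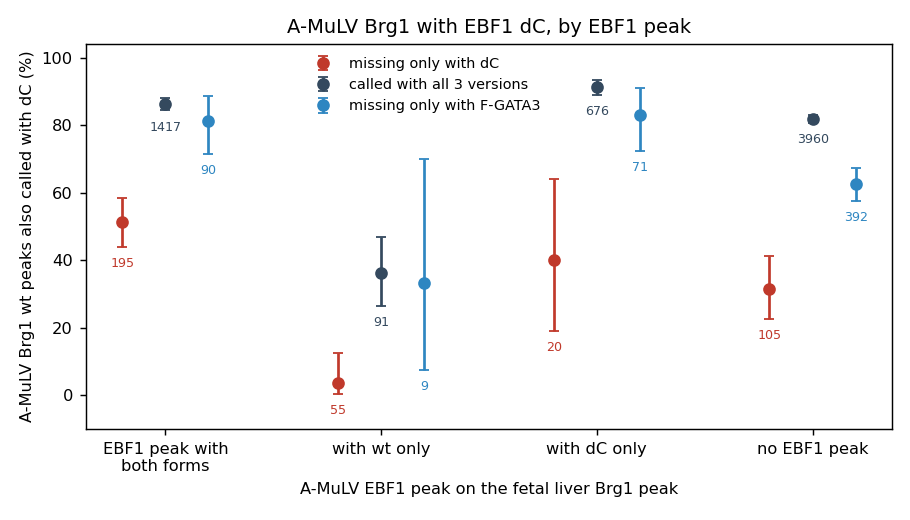
Of gained fetal liver Brg1 peaks with an A-MuLV Brg1 peak in EBF1 wt cells, the share (%) that also has one in EBF1 dC cells, split by the A-MuLV EBF1 peak on the site. Points are shares, lines exact 95% intervals over sites, and small digits the number of sites; peaks missing only with dC lie at 51.3%, 3.64%, 40.0% and 31.4% from left to right.

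EBF1 peaks were more frequent on the higher of the 831 peaks, although the highest of all, inside Stox2, had none. Sites with EBF1 wt alone had a median wt fold of 9.40, those with both forms 8.85 and those with no EBF1 peak 6.49. In 4 groups of 207 or 208 by wt fold, EBF1 wt peaks stood on 16.8%, 24.0%, 44.4% and 61.1% of the sites from the lowest group to the highest. A-MuLV Brg1 wt peaks stood on 33.7%, 34.1%, 50.2% and 62.5%, while Brg1 dC peaks stood on 24.5%, 17.3%, 21.7% and 26.4%. The rise with height was thus seen for EBF1 and for Brg1 with wt, and the interval of Brg1 with dC in the lowest group (18.8 to 30.9) overlapped that in the highest (20.6 to 33.0).

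**Figure D4:**
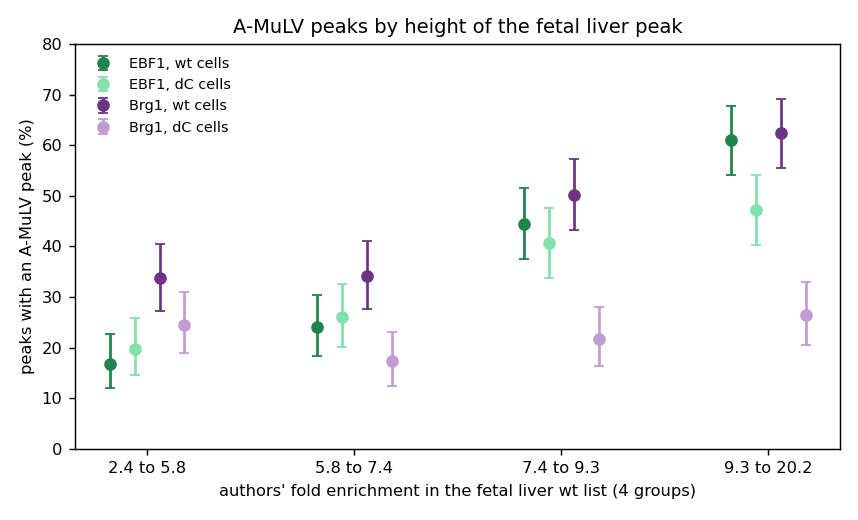
Share (%) of peaks missing only with dC that overlap an A-MuLV peak, in 4 groups of 207 or 208 by fold enrichment in the fetal liver wt list, with exact 95% intervals over sites. EBF1 wt goes from 16.8% to 61.1% and Brg1 in EBF1 wt cells from 33.7% to 62.5%, while Brg1 in EBF1 dC cells is 24.5% in the lowest and 26.4% in the highest group.

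Of the 20 highest peaks, taken 1 per gene, 15 had a Brg1 peak in A-MuLV cells with wt and 7 with dC, and 14 had an EBF1 peak with wt and 9 with dC. The site inside Agbl1, an enzyme that trims glutamates from proteins, had an A-MuLV Brg1 fold of 17.1 and an EBF1 fold of 8.02 with wt, and no peak of either with dC. The same held inside Tmem132e, with a Brg1 fold of 10.3 and an EBF1 fold of 6.75. It held also for an intergenic site 52171 bp from Lrig2 (6.76 and 8.15) and for one 746941 bp from Rapgef2 (12.6 and 7.05), an exchange factor for Rap proteins. At the intergenic site nearest to N4bp1, EBF1 was called with wt (6.27) and Brg1 with neither form.

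The peak over the Gm30039 start, 12785 bp from Icosl, the ligand of the ICOS costimulatory receptor, kept both proteins with dC. Its A-MuLV Brg1 folds were 17.8 with wt and 12.1 with dC, and its EBF1 folds 13.7 and 20.2. A site 75314 bp from Ccl1, a chemokine gene, had Brg1 folds of 11.7 and 6.56 and EBF1 folds of 16.5 and 9.78. The sites inside Nkd2, Clstn1, Zdhhc7 and Bean1, and one 258484 bp from Nuak1, also carried both proteins with both forms. The sites inside Niban1 and Nav2, 4630 bp from Ms4a1 and 648552 bp from Adgrl2 had no A-MuLV peak in any list. In all, 344 of the 831 sites had none (41.4%, 38.0 to 44.8), against 42.8% of all gained peaks.

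**Figure D5:**
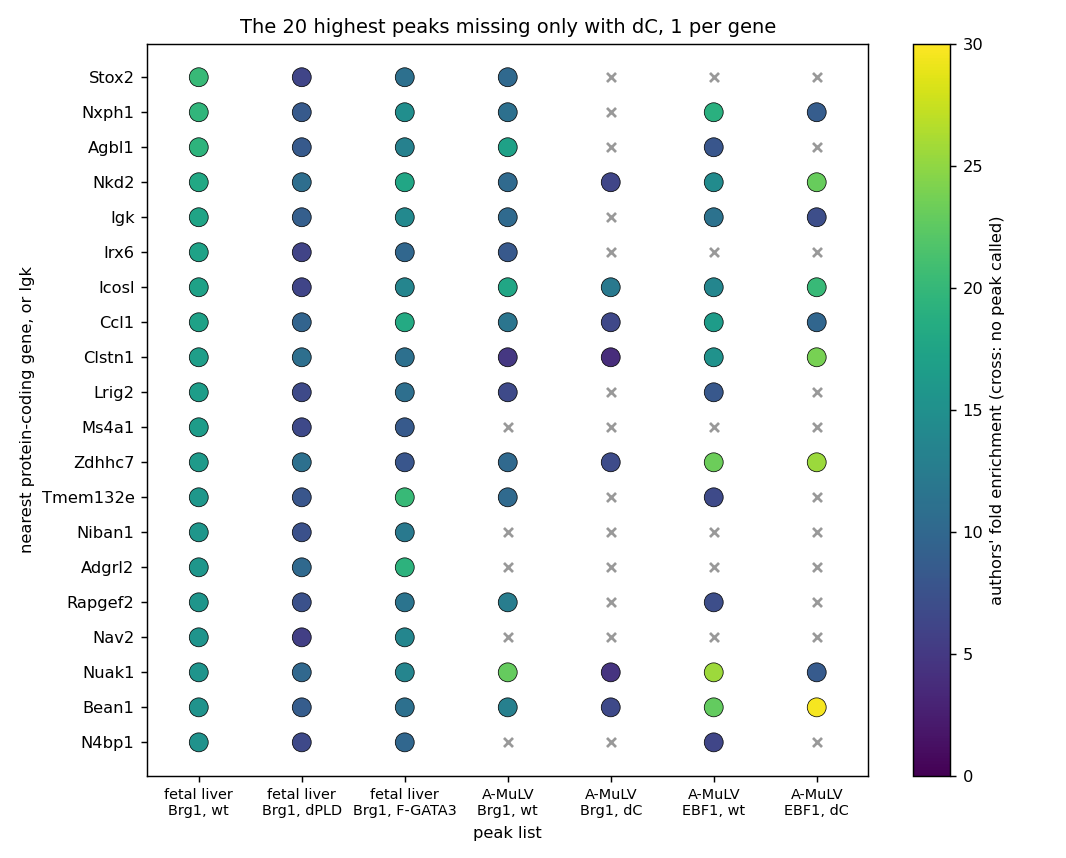
Authors' fold enrichment of the 20 highest peaks missing only with dC, 1 per gene, in the wt, dPLD and F-GATA3 fetal liver Brg1 lists and the 4 A-MuLV lists. Colour gives the fold within each list and a cross marks no peak; 15 sites have an A-MuLV Brg1 peak with wt and 7 with dC.

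The 831 peaks were mostly away from promoters. Of the 807 on chromosomes with gene starts, 79 (9.79%, 7.83 to 12.1) overlapped a promoter window, against 23.5% of all gained peaks. The share was 32.7% for peaks called with all 3 versions, which are also wider, a difference of -22.9 points (-25.0 to -20.5). It was 15.9% for peaks missing only with F-GATA3, 23.9% for those missing only with dPLD, 4.71% for those called only with F-GATA3 and 6.68% for those called with none. The median distance from summit to the nearest start was 19511 bp, against 7672 bp for peaks called with all 3 versions. At least 1 base of a protein-coding gene body was covered by 57.8% (54.3 to 61.1), against 63.6% of all gained peaks and 68.9% of those called with all 3 versions. By summit the shares were 54.5%, 56.7% and 59.3%. Of the 79 promoter sites, 38 had an A-MuLV Brg1 peak with wt and 38 with dC, and 76.3% (59.8 to 88.6) of those with wt were also called with dC. Off promoters the share was 33.5% (28.4 to 38.9). Among peaks called with all 3 versions the shares were 90.3% on promoters and 77.4% off them. Peaks missing only with F-GATA3 had 72.8% and 64.4%, and those missing only with dPLD 71.4% and 53.1%. On promoters the shares of these classes lay inside the interval of 59.8 to 88.6. Off promoters they lay above that of 28.4 to 38.9.

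The immunoglobulin kappa locus held a dense group of these peaks. Igk, chr6:67555636-70726754, encodes the kappa light chain, whose V segments are joined mostly after the pro-B stage. Of its 139 gained peaks, 37 were missing only with dC (26.6%, 19.5 to 34.8), which is 4.45% of the 831. Their wt folds ran from 5.64 to 17.5 with a median of 11.0. Another 36 of the 139 were called only with F-GATA3, 37 with none of the 3 versions and 26 with all 3. A-MuLV Brg1 was called on 34 of the 37 with wt and on 2 with dC, and EBF1 on 20 with wt and on 6 with dC. Over all 139 gained peaks of the locus, Brg1 was called on 99 with wt and on 11 with dC, and EBF1 on 51 and 13. The heavy chain locus Igh had 2 such peaks among 71 gained and the lambda locus Igl none among 11. Neighbouring V segments are near copies of one another, and the handling of reads that match several places is not given in the sources used here. Without the 37 peaks, 41.3% (36.1 to 46.8) of the sites with a Brg1 wt peak were also called with dC.

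With the Igk locus included, most of the peaks of this class were scattered. Joined at gaps under 10 kb, all of the peaks formed 800 runs, of which 27 held 2 or more peaks. Several of these 27 runs lay in Igk, with up to 3 peaks each. The longest run, inside Tead1, held 4. Cldn14, which encodes a tight-junction protein, had 6 of the peaks in its body extended by 10 kb, out of 10 gained peaks there. Tead1, which encodes a partner of the YAP coactivator, had 5 out of 11. None of these 11 sites carried an EBF1 or Brg1 peak in A-MuLV cells. Bean1, Nuak1, Mgat5 and Rarres1 had 3 each.

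Few B-lineage genes had a peak of this class. Of 42 genes on 4 lists (B-lineage transcription factors, B-cell receptor and signalling, surface proteins, V(D)J recombination), 3 had one in the body extended by 10 kb (7.14%), while 41 had a gained peak and 36 a peak called with all 3 versions. Of all protein-coding genes, 3.21% had a peak missing only with dC. With fetal liver lists of equal length the count was 6 of 42. Ms4a1, which encodes the surface protein CD20, had 2, with wt folds of 16.5 and 14.3. The first, at chr19:11244012-11245049, had folds of 6.68 with dPLD and 8.41 with F-GATA3 and no peak in A-MuLV cells. Ebf1 had 1 out of 11 gained peaks, with a wt fold of 6.83, inside the gene. Btk, which encodes a kinase of B-cell receptor signalling, had 1 within 10 kb with a fold of 4.30, which lay outside the gene, on the promoter window of the ribosomal protein gene Rpl36a. Pax5, with 10 gained peaks, and Ikzf3, with 9, had none.

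Lists for other lineages and complexes gave few genes. Of 12 T-lineage genes, 2 had a peak within 10 kb (16.7%, against 3.21% of all protein-coding genes), both outside the gene body. They were Cd3g (wt fold 6.53) and Tcf7 (8.37), which encode a chain of the T-cell receptor complex and a transcription factor of early T cells. Neither site had an A-MuLV peak. Of 8 erythroid and megakaryocyte genes, 1 had a peak (12.5%). It lay inside Itga2b, the integrin chain CD41, with folds of 9.27 with wt, 5.41 with dPLD and 5.82 with F-GATA3. There EBF1 was called in A-MuLV cells with wt (11.8) and dC (17.7), and Brg1 with wt (6.47) and not with dC. Of 12 genes for BAF and PBAF subunits, 1 had a peak (8.33%), Arid1b with a wt fold of 4.94, and EBF1 was called there with wt (6.04) and not with dC. Smarca4, with 4 gained peaks, had none, and Gata3 had no gained peak. No peak of this class lay within 10 kb of a gene of the innate lymphoid, myeloid, progenitor, stromal or ubiquitously expressed lists.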

How the data were processed

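Brg1 and EBF1 were measured by ChIP-seq in 14 mouse samples, and the 9 deposited peak lists were used. Per the submitters' processing notes, Bowtie2 2.3.3.1, SAMtools 1.9, deepTools 3.3.1, MACS2 2.1.2 and the build GRCm38 were used by the authors. For the peak threshold, duplicate handling and choice of input, nothing is given in the sources used here. The authors deposited, for each peak, a fold enrichment (a ratio at the summit), −log10 p and −log10 q values, the summit, and a whole-number score that is 10 times the −log10 q. Reads were not analysed here.

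Lists were compared by interval overlap of at least 1 bp with Python 3.11.15, pandas 2.3.3 and scipy 1.17.1, tested on simulated intervals. Gene bodies and promoter sequences came from RefSeq tables for GRCm38.p6. Gene starts covered 20 chromosomes, and 24 of the 831 peaks lay on a chromosome whose starts were not used here. The planned motif count in windows around summits needed genome sequence and was made in promoters instead. The peaks, the gene lists (12) and the alternatives were chosen with earlier results of these data known. Genes named are the nearest protein-coding gene of the 20 highest peaks by wt fold and the 10 highest by EBF1 wt fold, list genes with a peak within 10 kb (up to 4 per list), the 5 genes with the most peaks (6 with a tie), Igk, Igh, Ebf1, Gata3 and Smarca4. Igl, Pax5, Ikzf3 and the genes at the edge of the rule were chosen after seeing their values. One site that the rule names is not reported here. The alternatives were a minimum −log10 q (20 in fetal liver, 10 in A-MuLV Brg1), lists of equal length, overlap of 50% of the shorter peak, summits within 200 bp, no dC or empty-vector peak within 1 kb, 1 peak per run, no Igk peaks, and gene windows of 50 kb.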

Additional observations from a re-analysis of the deposited data

How the results depend on the processing

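No paired analysis was possible because each group had 1 library, and no replicate could be left out. Over the alternatives, 40 values were within their intervals of the reported one or, for counts, within 1.5 times of it, and 24 moved further. A fetal liver −log10 q of at least 20 gave shares of 41.8% (EBF1 wt), 40.4% (EBF1 dC), 67.2% (A-MuLV Brg1 wt) and 49.6% (Brg1 dC), with 65.7% of Brg1 wt sites also called with dC. Fetal liver lists of equal length gave 37.0% (EBF1 dC), 5.98% (EBF1 wt alone), 66.1%, 51.3% and 68.6% for the last 3, and 6 of 42 B-lineage genes. Summits within 200 bp gave 1335 peaks, 732 of them among the 831, with 28.8% (EBF1 wt), 5.69% (EBF1 wt alone), 56.9% (Brg1 wt), 43.3% (Brg1 dC) and 64.2% also called with dC. EBF1 lists of equal length gave 25.0% (EBF1 dC) and 13.5% (EBF1 wt alone). An A-MuLV Brg1 −log10 q of at least 10 gave 20.6% (wt), 4.21% (dC) and 16.4% also called with dC. A-MuLV summits within 200 bp of the wt summit, an alternative chosen after seeing the data, gave 38.7% (Brg1 wt) and 19.0% (Brg1 dC). The cause of these moves was not tested. Most of the 831 peaks left the class under the stricter threshold and under equal lengths, so that those settings describe largely different peaks. The motif count in a window of 100 bp around summits was not run, since no genome sequence was used. Depth is unknown, and the A-MuLV Brg1 lists extend to weaker peaks than the fetal liver lists.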
